A study of Homo sapiens with 4 samples.

Results

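Large ribosomal subunit assembly factors are the proteins that build the large subunit of the cytosolic ribosome from its RNA and its ribosomal proteins. The group described here holds 52 genes of the 26364 listed in each sample. They were chosen by name for that function, with earlier results of these data known. RNA was sequenced from BE(2)C, a human neuroblastoma cell line with amplified MYCN, 1 line in all groups. Ctrl cells received a non-targeting siRNA and MYCN KD cells a single siRNA against MYCN, with 2 samples in each group and RNA taken the day after transfection. The labels give 80 nM siRNA and 6 h of incubation with it, and the study's methods state a lower final concentration. With a single siRNA, effects of its sequence on other genes cannot be told apart from those of MYCN. The question here is how the levels of these mRNAs differed when MYCN was lowered.

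Assembly of the large subunit begins in the nucleolus, where early factors fold the freshly transcribed ribosomal RNA. DEAD-box helicases, GTPases and AAA ATPases then drive the particle from step to step, the internal spacer ITS2 is cut out, and late factors carry the particle through the nuclear pore and are stripped from it in the cytoplasm. MYC proteins are known as activators of ribosome production, and they bind DNA with MAX at the E-box, whose canonical letters are CACGTG.

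RPKM is the number of reads on a gene scaled for the gene's length and for the mapped reads of the sample, so levels can be compared between genes. The authors computed it from counts from which unwanted variation had been removed. The totals behind the values, recovered from the RPKM themselves and so counted after that adjustment, were 29055819 to 34142988 reads per sample, and the reads behind a single value of these 52 genes ran from 117 (PPAN in MYCN KD) to 14771 (PES1 in Ctrl). For PPAN the exact 95% Poisson intervals were 234.1 to 349.7 reads over the Ctrl samples and 96.76 to 163.0 over MYCN KD. These intervals did not overlap, but the reads are adjusted values and were not scaled for the sample totals. The intervals therefore only approximate the counting error. All 52 genes passed the filter, a minimum mean RPKM of 1. MYCN itself, the targeted gene, stood at 1068 and 1073 RPKM under Ctrl siRNA and at 720.2 and 718.0 RPKM upon knockdown, 67.2% of the Ctrl mean. Its log2 fold change was -0.57, and -0.38 after quantile normalization. The 7 neuroblastoma markers reported, among them DBH, were above 1 RPKM in every sample, with summed levels of 2763 to 3031 RPKM under Ctrl siRNA and 3954 to 4333 RPKM upon knockdown. Of 6 blood cell markers, 5 were below 1 RPKM in every sample, and HBB was listed at 0 in all. The exception was CD68, a macrophage lysosomal protein also found in other cells, with 4.26 and 3.45 RPKM under Ctrl siRNA and 9.40 and 11.5 RPKM upon knockdown (adjusted p = 0.00918 from limma). The 8 stromal and Schwann cell markers summed to 24.2 to 26.0 RPKM under Ctrl siRNA and 30.8 to 32.9 RPKM upon knockdown. The part of these shifts in the results below was not tested. In bulk RNA, fewer cells of a kind and less RNA per cell cannot be told apart.

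The promoters of the 4 genes at the ends of the response are shown first, because the factor that was lowered is a DNA-binding protein. MRTO4 and LYAR were among the 3 most changed genes, with RRS1, and NMD3 and ZNF622 were the least changed. Each sequence is the 250 bases that end at the start site in the RefSeq table, 5′ to 3′ on the gene's strand, placed on GRCh37 by exact match, with the E-box CACGTG, or its variant on either strand, in capitals where it occurs.
MRTO4 (chr1:19578049-19578298, plus strand): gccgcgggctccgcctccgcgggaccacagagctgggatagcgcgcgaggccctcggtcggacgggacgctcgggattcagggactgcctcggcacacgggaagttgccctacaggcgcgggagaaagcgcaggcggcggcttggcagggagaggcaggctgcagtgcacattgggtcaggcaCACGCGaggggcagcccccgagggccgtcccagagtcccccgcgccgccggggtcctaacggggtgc
LYAR (chr4:4291882-4292131, minus strand): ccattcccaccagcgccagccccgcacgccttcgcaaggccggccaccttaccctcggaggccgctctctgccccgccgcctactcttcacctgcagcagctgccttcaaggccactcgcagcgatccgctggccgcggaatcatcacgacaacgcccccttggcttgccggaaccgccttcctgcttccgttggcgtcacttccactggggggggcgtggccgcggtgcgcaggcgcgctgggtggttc
NMD3 (chr3:160938849-160939098, plus strand): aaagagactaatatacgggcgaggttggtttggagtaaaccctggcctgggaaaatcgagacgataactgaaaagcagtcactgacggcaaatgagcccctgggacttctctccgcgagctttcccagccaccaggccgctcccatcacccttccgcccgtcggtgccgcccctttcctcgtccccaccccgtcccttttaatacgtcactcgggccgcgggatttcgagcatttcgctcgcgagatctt
ZNF622 (chr5:16465910-16466159, minus strand): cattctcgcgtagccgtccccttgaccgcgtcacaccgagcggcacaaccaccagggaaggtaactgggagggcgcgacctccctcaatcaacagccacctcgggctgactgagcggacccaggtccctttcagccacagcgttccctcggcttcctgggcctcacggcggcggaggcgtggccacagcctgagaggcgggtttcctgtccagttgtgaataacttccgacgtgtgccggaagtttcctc
The MRTO4 stretch held a single copy of the variant CACGCG, and the other 3 held neither form. LYAR has 2 promoter entries in the table, and the one listed first is shown. GC content was 73.6% in MRTO4, 70.0% in LYAR, 58.0% in NMD3 and 64.0% in ZNF622.

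Upon MYCN knockdown, 49 of the 52 genes fell past the threshold (adjusted p under 0.05, limma) and 0 were higher, against a background of 22.8% lower and 25.3% higher among the 11411 tested genes. At an unadjusted p under 0.05 also 0 were higher, against 3463 of the 11411 tested genes. By limma voom on the recovered reads, 49 were lower and 0 higher, against 2566 lower and 2926 higher of the tested genes. In 51 genes both MYCN KD values lay below both Ctrl values, which was so in 35.8% of the tested genes, and in 0 genes did both lie above, against 40.4% of the tested genes. The median log2 fold change of RPKM + 1 was -0.67 with quartiles of -0.88 and -0.48, beside a median of 0.03 over all tested genes. In RPKM the median gene stood at 59.5% of its Ctrl mean. At or below 50% of the Ctrl mean were 10 of the 52 genes, against 2.42% of the tested genes. The summed level of the 52 genes was 2066 to 2118 RPKM in the Ctrl samples and 1285 to 1319 RPKM upon knockdown, a fall to 62.2% of the Ctrl mean.

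**Figure D1:**
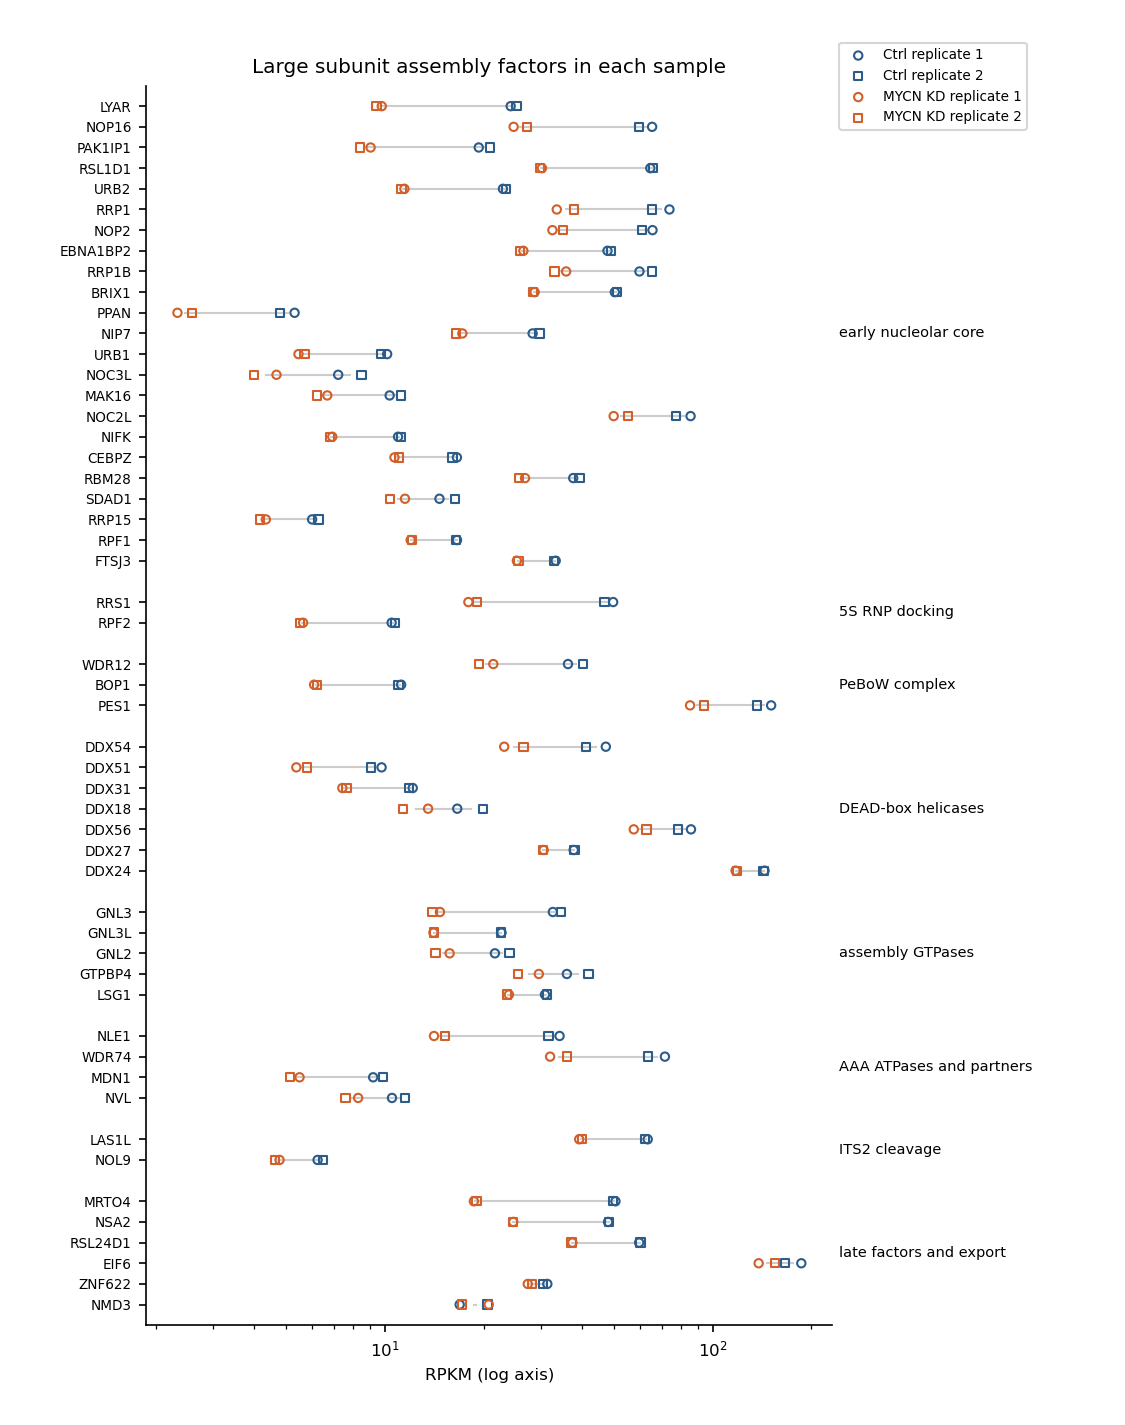
RPKM (log axis) of each of the 52 genes in the 4 samples, with Ctrl in blue, MYCN KD in orange, replicate 1 as circles and replicate 2 as squares, ordered by role. The grey line joins the group means. The orange symbols lie left of the blue ones in 51 genes, and NMD3 is the exception.

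Levels in Ctrl spanned from 5.05 RPKM for PPAN to 176.0 RPKM for EIF6, with a median of 31.9 RPKM. The size of the change did not follow the level closely. Over the 52 genes, Pearson's r between log2 fold change of RPKM + 1 and log2 Ctrl level was -0.135 and Spearman's rho -0.194. Both are given as a description across genes that share the same 4 libraries. The added 1 shrinks the changes of genes with low levels, so both values depend on it. For PPAN the log2 fold change was -0.81 with 1 added and -1.01 with 0.1 added. In 52 of the 52 genes the replicate number that was higher in Ctrl was the lower one in MYCN KD, as it was in 99.35% of the tested genes. The replicate differences of both groups were therefore mirror images over the 52 genes (r = -0.9996, a description), a property of the deposited values whose origin was not tested. An exact two-sided permutation test of 2 against 2 cannot go below 0.3333, so the p-values given come from limma. It borrows its estimate of the spread from all tested genes and takes the 4 samples as independent. With mirrored replicate differences, the 2 groups do not give separate estimates of the spread. The p-values may therefore be too small and the intervals too narrow, and the extent was not tested.

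**Figure D2:**
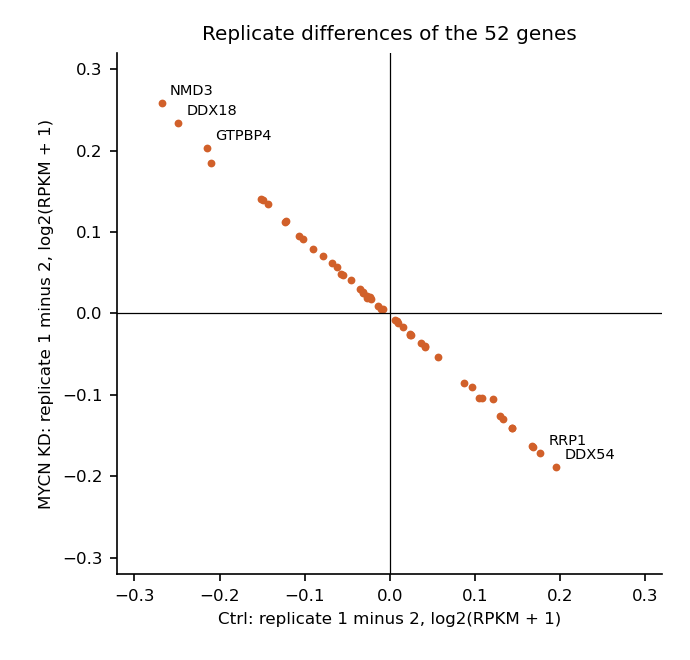
Difference between replicate 1 and replicate 2 on the log2(RPKM + 1) scale in Ctrl (horizontal) and in MYCN KD (vertical), 1 point per gene. The 52 points fall on a line through 0 with opposite signs, and the largest distances are those of NMD3 and DDX18.

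The early nucleolar core was the largest role group and fell as a whole. By limma, all 23 genes passed the adjusted p of 0.05, with a median log2 fold change of -0.75. LYAR, a zinc finger nucleolar protein of growing cells, stood at 24.2 and 25.2 RPKM under Ctrl siRNA and at 9.78 and 9.43 RPKM upon knockdown. That is 38.9% of the Ctrl mean, with a log2 fold change of -1.28 (SE 0.045, adjusted p = 0.00359 from limma), and the groups were far apart. NOP16, a nucleolar protein of early large subunit particles, had 65.3 and 59.5 RPKM under Ctrl siRNA and 24.7 and 27.1 RPKM upon knockdown. Both of its MYCN KD samples were under 50% of the lower Ctrl sample, at 41.5% of the Ctrl mean (log2 fold change -1.24, SE 0.077, adjusted p = 0.00422 from limma). PAK1IP1, a WD-repeat protein needed for the early particle, measured 19.3 and 20.9 RPKM under Ctrl siRNA and 9.05 and 8.41 RPKM upon knockdown. RSL1D1, a nucleolar protein with a ribosomal L1 domain, measured 64.5 and 65.7 RPKM under Ctrl siRNA and 30.1 and 29.7 RPKM upon knockdown. URB2, a nucleolar factor of early particles, measured 22.9 and 23.4 RPKM under Ctrl siRNA and 11.5 and 11.2 RPKM upon knockdown. These 3 genes were thus at 43.4%, 45.9% and 49.0% of their Ctrl means, and in none of them did the groups come near each other.

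At the other end of the early core stood FTSJ3, a methyltransferase-family protein of pre-ribosomal RNA processing, with 33.2 and 32.8 RPKM under Ctrl siRNA and 25.3 and 25.6 RPKM upon knockdown. It kept 77.0% of its Ctrl mean and was still lower in both MYCN KD samples (log2 fold change -0.36, SE 0.034, adjusted p = 0.00677 from limma). The other 17 genes of the early core ranged from 48.6% to 72.7% of their Ctrl means. They are named here after their values were seen, as are DDX51, DDX31, DDX56, DDX27, DDX18, MDN1, NSA2 and RSL24D1 in the groups that follow. RRP1 and its paralog RRP1B kept 51.3% and 55.0%. NOP2, the methyltransferase that places a base methylation on large subunit RNA, kept 53.3%, and EBNA1BP2 and BRIX1, partners in the early particle, kept 54.1% and 56.1%. NOC3L and NOC2L, relatives in the nucleolar export complexes, differed in level, at 7.85 RPKM and 81.5 RPKM under Ctrl siRNA, and kept 55.2% and 64.4%. URB1, the large scaffold that works near URB2, kept 56.0%, and NIP7 kept 58.2%. MAK16, NIFK, CEBPZ and RBM28 kept 59.8%, 61.9%, 66.5% and 68.3%, and RRP15, SDAD1 and RPF1 kept 69.2%, 70.5% and 72.7%. PPAN, at 48.6%, had the lowest listed level of all 52 genes. Of its annotated exon bases, 47.6% also belong to the readthrough gene PPAN-P2RY11, which is listed at 0 in every sample. How reads on shared bases were assigned is not given in the sources used here. That 0 therefore does not show the overlap to be harmless, and the level of PPAN may be understated.

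RPF2 and RRS1 act as a pair that docks the 5S RNP, a small RNA bound by ribosomal proteins, on the growing subunit. RRS1 fell to 38.5% of its Ctrl mean and was the second most changed of the 52 genes. Its values were 49.7 and 46.7 RPKM under Ctrl siRNA and 18.0 and 19.1 RPKM upon knockdown (log2 fold change -1.33, SE 0.057, adjusted p = 0.00359 from limma). RPF2 had 10.5 and 10.7 RPKM under Ctrl siRNA and 5.63 and 5.51 RPKM upon knockdown, 52.5% of the Ctrl mean (adjusted p = 0.00361 from limma). The Ctrl mRNA level of RRS1 was thus above that of RPF2, 48.2 against 10.6 RPKM, with the replicates of each far from the other.

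PES1, BOP1 and WDR12 form the PeBoW complex, which is needed for processing of the large subunit RNA. All of its mRNAs were lower, although their levels differed widely. PES1 was the most abundant, with 150.7 and 136.4 RPKM under Ctrl siRNA and 85.3 and 94.1 RPKM upon knockdown, 62.5% of the Ctrl mean (adjusted p = 0.0103 from limma). WDR12 had 36.2 and 40.3 RPKM under Ctrl siRNA and 21.4 and 19.3 RPKM upon knockdown, 53.3% of the Ctrl mean (adjusted p = 0.00714 from limma). BOP1 had 11.21 and 11.02 RPKM under Ctrl siRNA and 6.08 and 6.21 RPKM upon knockdown, 55.3% of the Ctrl mean (adjusted p = 0.00365 from limma). The order of levels, PES1 over WDR12 over BOP1, was the same in all 4 samples. The log2 fold changes of the complex, from -0.88 to -0.67, lay within a narrow part of the range of all 52 genes.

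**Figure D3:**
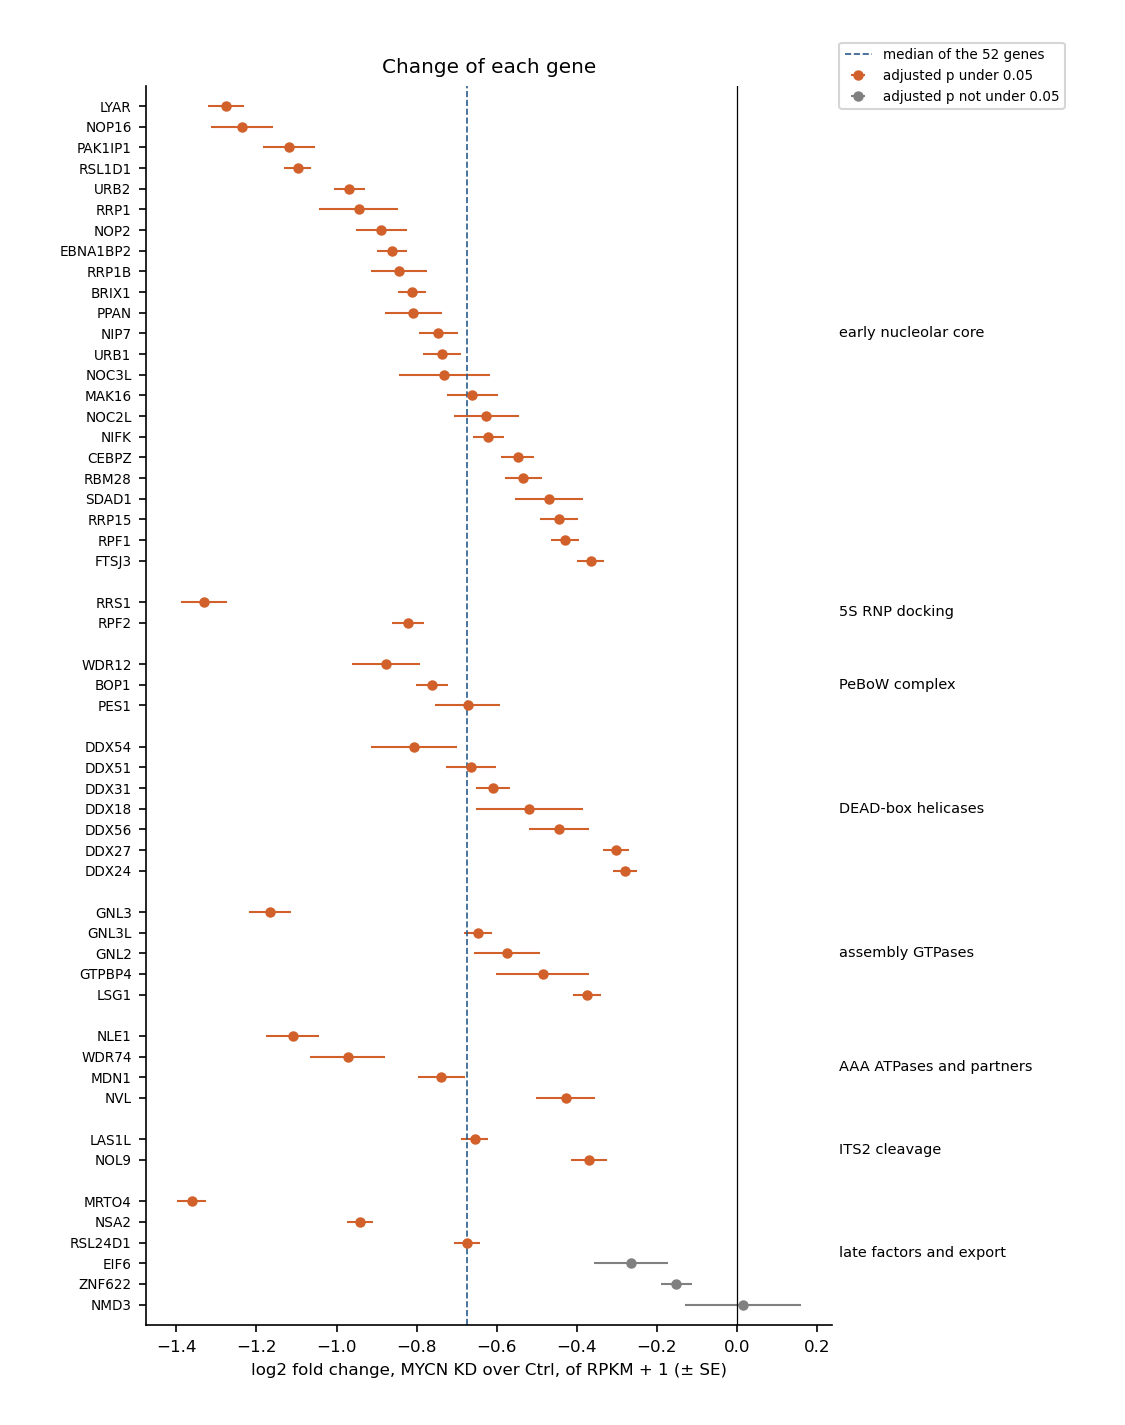
Log2 fold change of RPKM + 1 in MYCN KD over Ctrl, with its standard error from limma, for the 52 genes by role. Orange points passed an adjusted p of 0.05, the 3 grey points (EIF6, ZNF622 and NMD3) did not, and the dashed line is the median of the 52 genes.

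The DEAD-box helicases, which unwind RNA during assembly, had a median log2 fold change of -0.52 over 7 genes, from -0.81 to -0.28, and 7 of 7 were called lower. DDX54 changed most, from 47.2 and 41.1 RPKM under Ctrl siRNA to 23.1 and 26.5 RPKM upon knockdown, 56.2% of the Ctrl mean (adjusted p = 0.0123 from limma). DDX24 was the most abundant helicase and changed least, with 143.8 and 142.8 RPKM under Ctrl siRNA and 117.4 and 118.3 RPKM upon knockdown (82.2%, adjusted p = 0.00840 from limma). Its small change was larger than the spread between replicates. DDX51, DDX31, DDX56 and DDX27 kept 59.2%, 62.7%, 73.2% and 80.6% of their Ctrl means. DDX18 had 16.6 and 19.9 RPKM under Ctrl siRNA and 13.5 and 11.4 RPKM upon knockdown, and its adjusted p of 0.0488 from limma was close to the threshold. The call of DDX18 was lost after rescaling samples to equal RPKM totals (adjusted p = 0.0823) and when low genes were kept (adjusted p = 0.0760).

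The assembly GTPases bind the particle at different stages, and 5 of 5 were lower. GNL3, also known as nucleostemin, a nucleolar GTPase of proliferating and stem cells, fell most. It had 32.5 and 34.4 RPKM under Ctrl siRNA and 14.72 and 13.98 RPKM upon knockdown, 42.9% of the Ctrl mean (log2 fold change -1.17, SE 0.052, adjusted p = 0.00359 from limma). Its paralog GNL3L had 22.7 and 22.6 RPKM under Ctrl siRNA and 14.1 and 14.2 RPKM upon knockdown, 62.3% of the Ctrl mean. The 95% intervals of the log2 fold changes were -1.32 to -1.01 for GNL3 and -0.75 to -0.54 for GNL3L and did not overlap, although their difference was not tested itself. GNL2, which acts at the nuclear stage, had 21.7 and 24.0 RPKM under Ctrl siRNA and 15.8 and 14.3 RPKM upon knockdown (65.8%). GTPBP4 had 35.9 and 41.8 RPKM under Ctrl siRNA and 29.5 and 25.5 RPKM upon knockdown (70.7%, adjusted p = 0.0417 from limma). The call of GTPBP4 was lost under the same settings as that of DDX18, with adjusted p = 0.0751 after rescaling and 0.0658 without a filter. LSG1, the cytoplasmic GTPase that releases the export adaptor NMD3, changed least of the 5, with 30.8 and 31.3 RPKM under Ctrl siRNA and 23.9 and 23.6 RPKM upon knockdown (76.4%, adjusted p = 0.00682 from limma).

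AAA ATPases use ATP to pull factors off the particle. MDN1, the largest of them, had 9.21 and 9.87 RPKM under Ctrl siRNA and 5.49 and 5.15 RPKM upon knockdown, 55.8% of the Ctrl mean. NLE1, a WD-repeat protein that MDN1 pulls on, fell further, from 34.1 and 31.6 RPKM under Ctrl siRNA to 14.1 and 15.3 RPKM upon knockdown (44.7%, log2 fold change -1.11, SE 0.066, adjusted p = 0.00414 from limma). NVL, a second ATPase, had 10.5 and 11.5 RPKM under Ctrl siRNA and 8.29 and 7.59 RPKM upon knockdown (72.0%, adjusted p = 0.0205 from limma). WDR74, on which NVL acts, had 71.5 and 63.5 RPKM under Ctrl siRNA and 31.9 and 35.9 RPKM upon knockdown (50.2%, log2 fold change -0.97, adjusted p = 0.00714 from limma). In both pairs the partner protein's mRNA was at a lower share of its Ctrl level than the mRNA of the ATPase, and these differences were not tested. NLE1 exons share 12.6% of their annotated bases with FNDC8 on the opposite strand.

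LAS1L and NOL9 work together on ITS2, LAS1L as the endonuclease and NOL9 as the kinase that acts on the cut end. LAS1L had 63.3 and 62.3 RPKM under Ctrl siRNA and 39.1 and 39.9 RPKM upon knockdown (62.9%, adjusted p = 0.00365 from limma). NOL9 stood lower, with 6.24 and 6.47 RPKM under Ctrl siRNA and 4.77 and 4.61 RPKM upon knockdown (73.9%, adjusted p = 0.0104 from limma). The groups did not overlap in either gene. Without MYCN KD replicate 2 the adjusted p of NOL9 was 0.0545.

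The late factors held both ends of the whole range. MRTO4 holds a place on the particle for the ribosomal stalk until the cytoplasm, and it fell most of all 52 genes. It lies on chromosome 1 of GRCh37 (hg19) from 19578299 to 19586622. Its values were 50.5 and 49.7 RPKM under Ctrl siRNA and 18.7 and 19.1 RPKM upon knockdown, 37.7% of the Ctrl mean (log2 fold change -1.36, SE 0.035, adjusted p = 0.00359 from limma). NSA2 had 47.9 and 48.3 RPKM under Ctrl siRNA and 24.6 and 24.5 RPKM upon knockdown (51.1%). RSL24D1, a placeholder for a ribosomal protein, had 59.6 and 60.2 RPKM under Ctrl siRNA and 37.3 and 37.1 RPKM upon knockdown (62.1%). In these 3 genes replicates lay close together and the groups were clearly apart. Of the annotated exon bases of NSA2, 51.2% overlap FAM169A on the opposite strand, which had 0.2604 to 0.2876 RPKM in all samples. That low level does not show the overlap to be harmless, since the assignment of shared reads and the use of strand are not given. The level of NSA2 may therefore be understated.

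The 3 genes that did not pass the threshold were all in the role group of late factors, in which 3 of 6 were called lower. Role groups were assigned here by function. LSG1, which also acts in the cytoplasm, stands with the GTPases and was called lower. EIF6, which keeps the subunits from joining until it is released in the cytoplasm, was the most abundant of the 52, with 186.2 and 165.8 RPKM under Ctrl siRNA and 138.0 and 154.6 RPKM upon knockdown. Both MYCN KD values lay below both Ctrl values, at 83.1% of the Ctrl mean, with a log2 fold change of -0.26 (95% interval -0.54 to 0.01, adjusted p = 0.0934 from limma). Over the alternatives the log2 fold change of EIF6 ran from -0.348 to -0.165, the latter by quantile normalization (adjusted p = 0.156 from limma). Without Ctrl replicate 1 it was -0.181. ZNF622, a zinc finger protein of the cytoplasmic particle, had 31.3 and 30.4 RPKM under Ctrl siRNA and 27.3 and 28.1 RPKM upon knockdown (89.8%). With a log2 fold change of -0.15 (95% interval -0.27 to -0.03) its adjusted p was 0.0506 from limma, just outside the threshold. By limma the adjusted p of ZNF622 was 0.0497 when the minimum mean RPKM was raised to 5, and 0.0594 when low genes were kept. It was 0.0903 after rescaling samples to equal RPKM totals, 0.0956 by quantile normalization and 0.469 with a block on the replicate number, each from limma. NMD3, the adaptor that links the subunit to the exportin XPO1, had 16.9 and 20.6 RPKM under Ctrl siRNA and 20.7 and 17.2 RPKM upon knockdown. The groups overlapped, with a mean of 101.2% of Ctrl and a log2 fold change of 0.02 (95% interval -0.41 to 0.44, adjusted p = 0.932 from limma). The interval is wide, so a moderate change of NMD3 in either direction was not detectable with these samples, and its sign turned without Ctrl replicate 1 (-0.12) and without MYCN KD replicate 1 (-0.11).

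A larger share of the group's promoters than of all promoters held the E-box letters. RefSeq windows, from 250 bases before the start to 50 after it, were found for 44 of the 52 genes. Not matched were RRS1, RSL1D1, URB2, RRP1B, RPF2, BOP1, MAK16 and DDX18. CACGTG, which reads the same on both strands, was present in 14 of the 44 genes (31.8%), against 8.77% of all 27305 genes in the table and 10.9% of the 15842 protein-coding ones. Within 50 bases of the start on either side it was present in 11 of the 44 genes (25%), against 3.51% of all genes and 4.4% of protein-coding ones. The related letters CACGCG, searched on both strands as CACGCG or CGCGTG, were present in 13 of the 44 genes (29.5%), against 13.5% of all and 18.1% of protein-coding genes. These shares are a description, since a match of letters does not show that MYCN binds there. Both comparison sets also include genes that did not pass the filter here, as all 52 genes did. Shares over the tested genes alone were not computed.

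Of the 16 places with CACGTG, 9 lay after the start. A set of them is shown because they belong to genes with large falls (MRTO4, LYAR, GNL3, PAK1IP1 and NLE1), to the PeBoW complex (PES1) or to the assembly GTPases (GNL2, whose fall was smaller than the median of the 52 genes). Each is 24 bases on the gene's strand with the E-box in capitals.
MRTO4: cttccgccgCACGTGgattcagcg
LYAR: cggcgagtcCACGTGctccccgcg
GNL3: ttcagttcaCACGTGgcgccagcg
PAK1IP1: cggaagaggCACGTGcgctgctga
NLE1: tttctcctcCACGTGgggacgcag
PES1: ttggcagggCACGTGcgggaggaa
GNL2: cgtcgtgcaCACGTGgtccggcgt
Counted from the start site, with the first transcribed base as 1, the E-box began at base 15 in MRTO4, 7 in GNL3, 13 in NLE1, 14 in PES1 and 4 in GNL2. It began at base -1 in PAK1IP1 and at base -64 of the second listed start in LYAR. The 14 genes with CACGTG had a median log2 fold change of -0.83, from -1.36 (MRTO4) to -0.47 (SDAD1), and 5 of them were at or below 50% of their Ctrl mean. The 30 genes without it had a median of -0.58, from -1.24 (NOP16) to 0.02 (NMD3), and 2 of them were at or below 50%. Both sets covered much of the same range, and the difference between them was not tested.

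**Figure D4:**
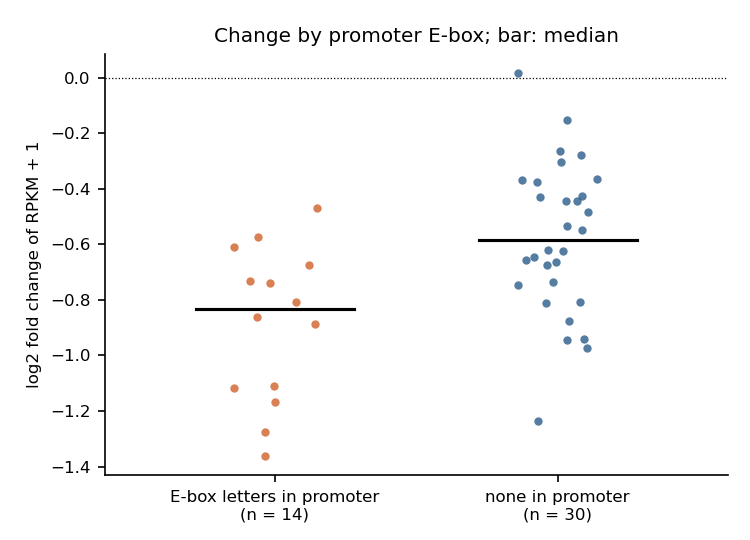
Log2 fold change of RPKM + 1 for the 14 genes with CACGTG in the promoter window and the 30 without it, 1 point per gene, with bars at the medians of -0.83 and -0.58. The points of both sets overlap over most of the range.

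Further large subunit factors from a second list showed falls that were smaller in the middle. Of 26 tested, 18 fell past the same threshold by limma and 0 were higher. At an unadjusted p under 0.05 also 0 of them were higher, against 3463 of the 11411 tested genes. The median log2 fold change of the list was -0.46, against -0.67 for the 52 genes. CCDC86 changed most, from 94.4 and 83.0 RPKM under Ctrl siRNA to 29.0 and 32.9 RPKM upon knockdown (34.9%, log2 fold change -1.49), which was beyond any of the 52 genes. NPM1, the abundant nucleolar chaperone, had 353.5 and 378.4 RPKM under Ctrl siRNA and 181.5 and 170.3 RPKM upon knockdown (48.1%), and SURF6 kept 56.7%. The 3 highest log2 fold changes of the list did not pass the threshold. XPO1, the export receptor that NMD3 recruits, had 35.1 and 44.1 RPKM under Ctrl siRNA and 42.3 and 34.0 RPKM upon knockdown (adjusted p = 0.815 from limma). EXOSC10, a nuclear exosome nuclease, had 34.5 and 35.3 RPKM under Ctrl siRNA and 35.3 and 34.5 RPKM upon knockdown (adjusted p = 0.981 from limma). EFTUD1, the cytoplasmic GTPase that evicts EIF6, had 4.14 and 4.54 RPKM under Ctrl siRNA and 5.08 and 4.65 RPKM upon knockdown (adjusted p = 0.190 from limma). SBDS, which works with EFTUD1 in that step, was lower at 75.6% of its Ctrl mean (adjusted p = 0.00630 from limma).

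Small subunit factors had a median log2 fold change of -0.67 over 49 tested genes, of which 44 were lower and 0 higher. The ribosomal proteins of the large subunit itself, the building blocks that these factors assemble, had a median of -0.46, with 42 of 46 lower and 0 higher, and lay closer together, from -0.68 to -0.24. At an unadjusted p under 0.05, 0 genes of either list were higher, against 3463 of the 11411 tested genes. Differences between these lists were not tested.

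**Figure D5:**
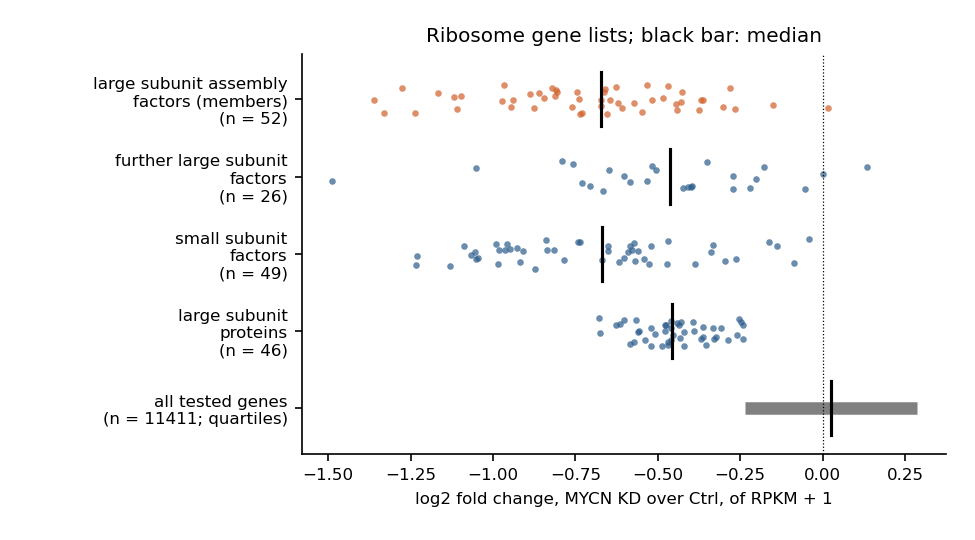
Log2 fold change of RPKM + 1 for the 52 large subunit assembly factors, 26 further factors, 49 small subunit factors and 46 large subunit proteins, 1 point per gene, with black bars at the medians. The grey bar gives the quartiles of all 11411 tested genes, -0.23 and 0.29.

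Annotated exons of 24 of the 52 genes overlap those of another gene of the files in GRCh37, over more than 10% of their bases in 10, and the use of strand in counting is not given in the sources used here.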

How the data were processed

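RNA-seq of BE(2)C cells was deposited for 4 samples, 2 of Ctrl and 2 of MYCN KD, grouped by their titles. Per the labels and the study's methods, the authors aligned reads to hg19 with HISAT2 2.1.0, counted them on RefSeq genes with featureCounts, used RUVSeq to remove unwanted variation and DESeq2 to model the counts, then deposited RPKM values in a file per sample. The RUVSeq variant, its number of factors and the use of strand in counting are not given in the sources used here.

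The test was limma 3.58.1 on log2(RPKM + 1) (lmFit, and eBayes with a trend) in R 4.3.3, over 11411 genes (minimum mean RPKM of 1), with no block, Benjamini-Hochberg adjustment over all of them and a threshold of 0.05. The members and lists were chosen with earlier results of these data known. Nothing in the sources says how the replicates were cultured beyond calling them biological. The p-values therefore measure only the spread between these samples after the authors' adjustment, with the samples taken as independent.

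Reads were recovered from the RPKM values, which come out as whole numbers of reads for all 19908 genes above 0 (within 0.005 of a read). The total was set from small RNA genes of known length, of which 194 of 428 gave the same total. The reads follow the authors' adjustment and are not raw counts, and intervals on them approximate counting error and cover no other variation. A repeated symbol was carried by 4 rows, none of which is a gene described here. Replicate numbers in the labels were not used to pair the samples in the main fit.

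Of the 52 genes, 27 were named by rule. The rule took the 10 lowest log2 fold changes of RPKM + 1 past the threshold and every gene not past it. It also took the ends of each role group. All members of the PeBoW complex, the 5S RNP docking pair, the assembly GTPases and the ITS2 cleavage pair were included as well. By percent of Ctrl the order of the falls differs for some genes. The other 25 were named after their values were seen. Promoter sequences came from RefSeq (GRCh38.p14) and were placed on GRCh37 by exact match, and exon positions from GENCODE release 44 lifted to GRCh37. Of the tested genes, 74.4% had a promoter entry, and motif shares were not computed over them. The limma fit was also run on simulated data with independent samples. The replicates here were mirrored, so that run gives no error rate for these data. Alternatives were another pseudocount, other filters and scalings, eBayes without a trend, a replicate block and each sample left out. After seeing the data, a crossed block was added, and also limma voom, run on the recovered reads. Other steps ran in Python 3.11.15 (pandas 2.3.3, numpy 2.4.6, matplotlib 3.10.9, scipy 1.17.1). A marker gene of the neuroblastoma list is not reported here.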

Additional observations from a re-analysis of the deposited data

How the results depend on the processing

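The count of assembly factors lower in MYCN KD, 49, stayed within 46 to 51 under every alternative, the count without overlap within 50 to 51, and MYCN stayed past the threshold, with a log2 fold change of -0.57 that became -0.38 by quantile normalization. The median log2 fold change of the 52 genes, -0.67, was -0.74 with a pseudocount of 0.1, -0.70 by quantile normalization, -0.61 after rescaling samples to equal RPKM totals, -0.75 with limma voom on the recovered reads, and between -0.70 and -0.69 when any 1 sample was left out. With a sample left out, the lone sample of its group is assumed to vary like the other group. The sign of NMD3 turned without Ctrl replicate 1 (-0.12) and without MYCN KD replicate 1 (-0.11), and over the 4 samples left out it ran from -0.12 to 0.15. Calls lost or gained for DDX18, GTPBP4, NOL9 and ZNF622 under other filters, scalings or left-out samples stand beside their values, and the cause was not tested. The call of EIF6 changed only with some samples left out or with the crossed block, and its range of log2 fold changes stands beside its values. PPAN gave no value when the minimum mean RPKM was 5. A replicate block on the number in the labels, which has 1 residual degree of freedom, gave 46 genes lower and 0 higher of the 52. Over all 11411 tested genes it gave 1851 lower and 2077 higher. With that block NOL9, DDX27 and DDX24 were no longer past the threshold. Same-numbered samples deviated in opposite directions (correlation -0.9845 over the tested genes). The values follow the removal of unwanted variation, so they cannot tell whether same-numbered samples were paired. The block is not read as a pairing. With crossed replicate numbers, added after seeing the data, 51 genes were called lower, EIF6 and ZNF622 among them, and 1 higher (NMD3), with 5262 lower and 5910 higher over all tested genes, against 2599 and 2890 without a block.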
